A study of Sus scrofa with 3 samples.

Results

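The genes described here encode proteins of the extracellular matrix, the integrin receptors through which cells hold it, and enzymes that cross-link or cut it. They were taken by symbol, as every probe set whose single platform gene symbol belongs to the collagen, laminin, integrin, fibulin, fibrillin, lysyl oxidase, matrix metalloproteinase or thrombospondin families, or is FN1, ELN, SPARC, SPARCL1, LUM, DCN, BGN, FAP, POSTN or TNC. The choice gave 103 probe sets of 23935 on the array, standing for 56 genes of the 6765 that carried a single symbol. The symbols alone decide membership, although the families were picked with earlier results of these data known. Of the 56 genes, 1 falls outside the label. ITGB1BP2 encodes a cytoplasmic protein that binds an integrin tail and is neither matrix nor integrin.

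The lungs came from minipigs fed in specific pathogen-free housing and were read on an Affymetrix porcine expression array with biotin-labelled RNA. The sham array holds lung of a minipig given the sham operation. The other two arrays hold lung of minipigs after ischemia-reperfusion, in which the left pulmonary artery was occluded for a time and then reopened while the bronchus was left alone and the lung stayed ventilated. The operated lung is the left, occluded side, and the non-operated lung is the right side. Each group is 1 array. The labels used here do not give the number of animals, their age, strain or sex, the occlusion and reperfusion times, whether both ischemia-reperfusion lungs came from a single animal, or whether RNA was pooled. Because each condition was read once, no difference below has a p-value, a replicate check or an estimate of the variation among animals, and precision is limited accordingly.

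In the lung the matrix has several parts with different builders. The basement membrane is a thin sheet of type IV collagen and laminins under the endothelium and the alveolar epithelium, where the sheets of both fuse into part of the blood-air barrier. The interstitium holds fibrillar collagens for tensile strength and elastic fibres for recoil, laid down mainly by fibroblasts and smooth muscle cells and fixed in place by lysyl oxidases. Integrins are pairs of an alpha and a beta chain that link this matrix to the cytoskeleton, and metalloproteinases and other proteases remodel it.

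Values are log2 signals, so a difference of 1 is 2-fold. Signals of different probe sets are not comparable as amounts, so single genes are compared only with themselves across arrays. Each array's median over non-control probe sets served as a floor, at 7.33 for sham and 7.31 for each ischemia-reperfusion lung, and lower values were set to it when a ratio was taken. A gene was counted when its mean over the 3 arrays lay above the mean floor, which left 35 of the 56 members and 4841 genes in all. Of the 21 members left out, 20, ITGB1BP2 among them, were at or below the floor on all 3 arrays, and 1, COL3A1, was above it on 2. A gene with several probe sets is represented by the one with the highest mean signal. Across all genes with several counted probe sets, the log2 ratios of probe sets for the same gene had a pooled SD of 0.42 in the operated and 0.43 in the non-operated lung when set against sham, and of 0.23 between the lungs. Over the 6 members with several counted probe sets the SD was larger against sham, 0.66 in the operated and 0.62 in the non-operated lung, and 0.15 between the lungs. These are the only internal error measures, and they do not cover repeat arrays or animals.

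The arrays themselves were alike in scale, with 2% trimmed means between 495.1 and 495.9 on the linear scale. SFTPC, the surfactant gene that marks alveolar type 2 cells, lay between 14.44 and 14.56 on all 3 arrays. AGER, a marker of alveolar type 1 cells, was below the floor in sham and at 8.27 and 8.13 in the non-operated and operated lungs. The sham array stood apart from the other two. The Y-linked gene EIF1AY was at 0.69 in sham, 10.68 in the non-operated lung and 10.89 in the operated lung, so the sham animal may differ in sex from the source of the other arrays. The labels give no sex, and in each ratio to sham such a difference cannot be told apart from the operation. Between the ischemia-reperfusion lungs, 12 of 4841 genes differed by at least 2-fold.

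Compared with sham, the matrix and integrin genes were on the higher side in both ischemia-reperfusion lungs, led by basement membrane genes. Ratios below 0 were less common among the members than among all genes. They were found for 7 of the 35 in the operated and 8 in the non-operated lung, beside 2756 and 2713 of the 4841 genes. FAP was past 2-fold on the lower side in both lungs, and LUM, FBLN1 and ITGB3 in the operated lung alone. In the operated lung 7 of the 35 counted members exceeded sham by 2-fold or more (COL4A2, LAMB1, LOX, SPARCL1, COL15A1, COL5A3 and TNC) and 4 were below it by as much (LUM, FBLN1, ITGB3 and FAP). That is 11 of 35, beside 17.8% of all counted genes past 2-fold in that comparison, 9.05% on the higher and 8.76% on the lower side. In the non-operated lung 7 members were higher (COL4A2, LAMB1, SPARCL1, COL15A1, ITGA8, ITGB5 and LOX) and 1, FAP, was lower, together 8 of 35. Of all genes 17.9% were past 2-fold there, 9.4% higher and 8.53% lower. Past 2-fold in both lungs were 5 members on the higher side (COL4A2, LAMB1, COL15A1, SPARCL1 and LOX), beside 7.62% of all genes, and FAP on the lower side, beside 7.02%. The median log2 ratio of the counted members was 0.58 for the operated and 0.42 for the non-operated lung, beside medians of -0.11 and -0.10 over all counted genes. Ratios above 0 were found for 28 and 27 of the 35 members, beside 2082 and 2124 of the 4841 genes. Both comparisons use the same sham array, so they are not independent of each other.

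**Figure D1:**
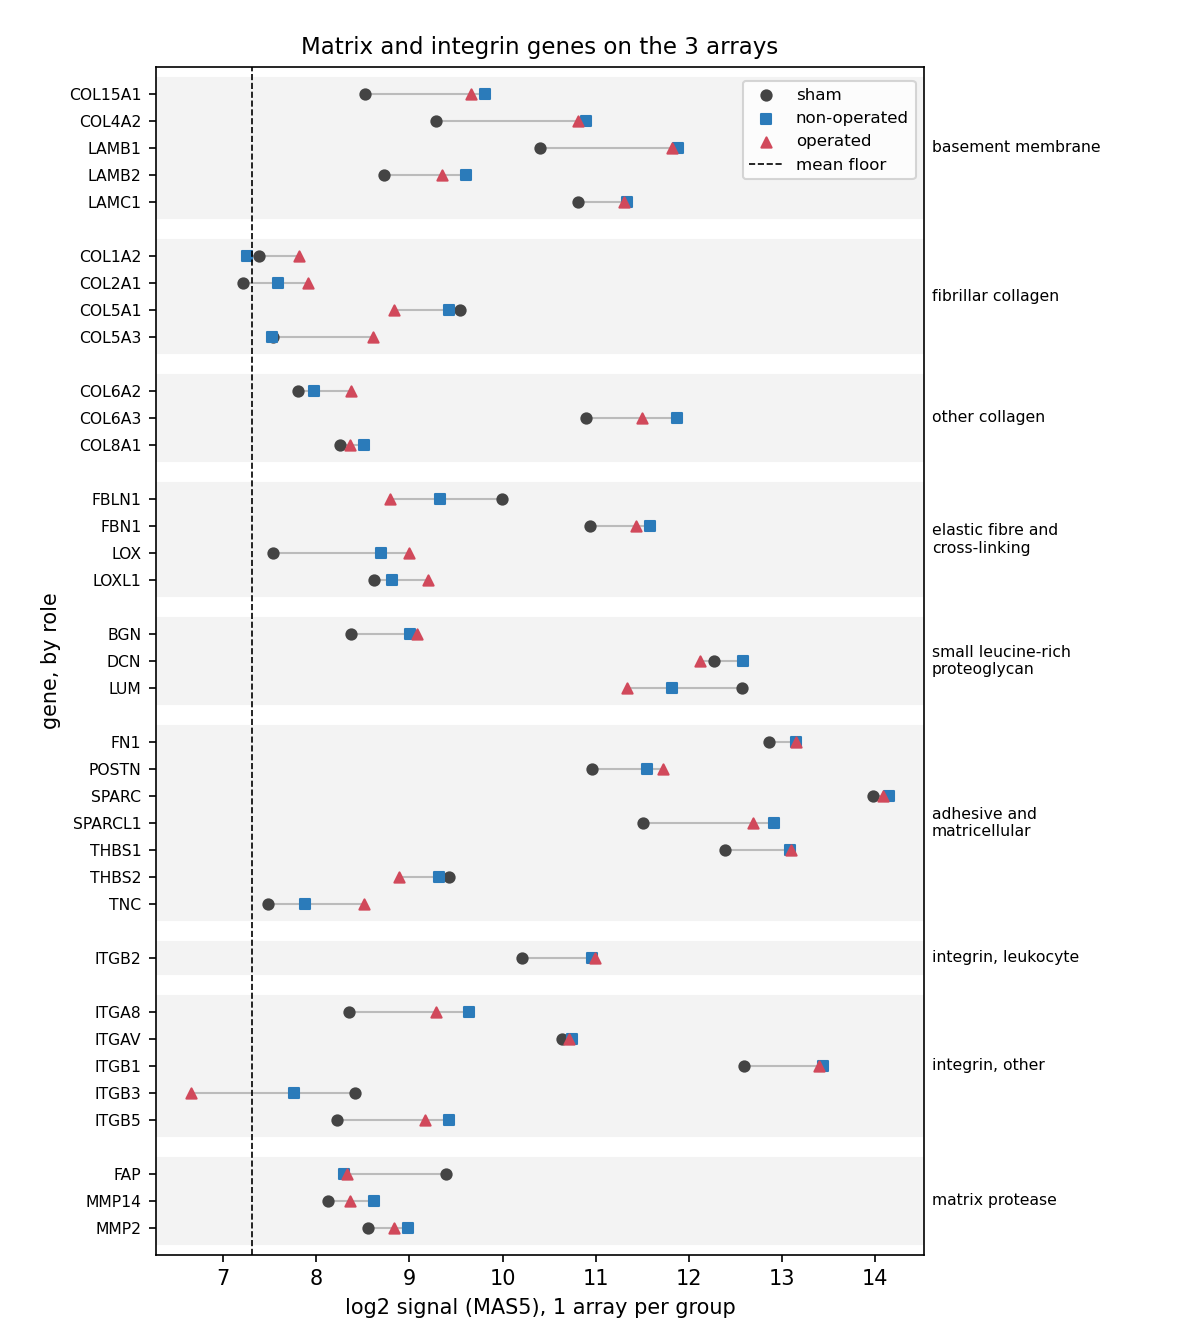
Log2 signal of the 35 counted matrix and integrin genes on the sham (circle), non-operated (square) and operated (triangle) arrays, 1 array each, grouped by role, with the mean floor as a dashed line. In the basement membrane group the sham point lies to the left of both lungs for each of the 5 genes, whereas LUM, FBLN1 and FAP have sham to the right.

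The basement membrane genes lay on the higher side as a group. All 5 members passed the filter, all 5 had ratios above 0 in both lungs, and 3 were at least 2-fold higher in each. The median log2 ratio was 1.14 for the operated and 1.29 for the non-operated lung. COL4A2 encodes the alpha 2 chain of type IV collagen, which joins alpha 1 chains in the network of nearly every basement membrane. Its signal was 9.29 in sham, 10.89 in the non-operated lung and 10.81 in the operated lung. It was thus 3.04-fold and 2.87-fold higher than sham, with nearly equal levels in both lungs. LAMB1, the beta 1 chain of laminins found under vessels and alveoli, stood at 10.40, 11.88 and 11.82 in the same order. That is 2.79-fold higher in the non-operated and 2.66-fold higher in the operated lung. A dimmer LAMB1 probe set was below the floor in sham and at 7.52 and 7.61 in the lungs, so it gives only lower bounds of 0.19 and 0.28 on the log2 scale.

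COL15A1 encodes a collagen that anchors basement membranes to the underlying fibrils and is typical of vessels and muscle. It read 8.53 in sham, 9.81 in the non-operated and 9.67 in the operated lung. These values made it 2.44-fold and 2.20-fold higher than sham, but with a floor at the 75th percentile its ratios were 0.56 and 0.41, and with a pseudocount of 100 added to the linear signals in place of the floor the operated ratio was 0.96. LAMB2, the beta chain that replaces LAMB1 in some vascular laminins, was at 8.73, 9.60 and 9.35, below the 2-fold mark in both lungs. LAMC1, the gamma chain shared by most laminins, was at 10.81, 11.33 and 11.30. Its log2 ratios were 0.52 and 0.49, with 0.65 and 0.92 from a dimmer probe set. The laminin members thus include beta and gamma chains on the same side of sham, and no alpha chain carried a single symbol among the members. Of the listed basement membrane partners 1 was counted, NID2, which encodes nidogen 2, a linker of laminin to type IV collagen. NID2 was at 8.96 in sham, 8.57 in the non-operated and 8.68 in the operated lung, on the lower side.

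The fibrillar collagens showed no such shared direction. Of 7 members 4 were counted, and their median log2 ratio was 0.51 in the operated and -0.04 in the non-operated lung. COL5A3 encodes the alpha 3 chain of type V collagen, a minor collagen that nucleates fibrils. Its signals of 7.53 in sham and 7.53 in the non-operated lung were just above the floor, against 8.61 in the operated lung. It was 2.12-fold above sham and 2.13-fold above the non-operated lung, on 1 of its 3 probe sets, as the others were below the floor on all arrays. With the pseudocount both log2 ratios were 0.79, below 2-fold. COL5A1, the main type V chain, had the opposite order. It was at 9.54 in sham, 9.42 in the non-operated lung and 8.84 in the operated lung, and a dimmer probe set gave log2 ratios of 0.60 for the non-operated and -0.26 for the operated lung.

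The major interstitial collagens were near the floor on these probe sets. COL1A2, a chain of type I collagen, was at 7.39 in sham, 7.26 in the non-operated and 7.82 in the operated lung. COL2A1, the cartilage collagen, was at 7.22, 7.59 and 7.91. COL3A1, the type III chain abundant in vessel walls and lung interstitium, did not pass the filter but was above the floor on 2 arrays, at 7.87 in sham and 7.52 in the non-operated lung, and below it in the operated lung. Its neighbour in the RefSeq gene order of the pig assembly Sscrofa11.1, COL5A2, was below the floor on all 3 arrays, as was COL11A1. Signals this close to the floor say little about type I and type III collagen in these lungs.

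Among the remaining collagens, 3 of 6 were counted, with medians of 0.58 in the operated and 0.26 in the non-operated lung and 0 members past 2-fold. COL6A3, a chain of the beaded type VI filaments that surround interstitial cells, came closest. It was at 10.90 in sham, 11.88 in the non-operated and 11.49 in the operated lung, log2 ratios of 0.98 and 0.60. Its partner chain COL6A2 was at 7.80, 7.98 and 8.38, with the operated lung highest instead. COL8A1, a short-chain collagen of vessel walls, lay between 8.26 and 8.51 on all arrays. COL7A1, COL10A1 and COL17A1 were below the floor throughout.

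Genes of elastic fibres and cross-linking lay on both sides of sham. LOX encodes lysyl oxidase, which oxidises lysines in collagen and elastin so that the fibres cross-link. Its signal was 7.54 in sham, 8.69 in the non-operated and 9.0 in the operated lung, with sham just above the floor. That is 2.23-fold higher in the non-operated and 2.76-fold higher in the operated lung, and with the pseudocount the non-operated ratio was 0.85, below 2-fold. LOXL1, the relative needed for elastic fibre renewal, ran in the same order at 8.63, 8.81 and 9.20 but stayed under 2-fold. FBN1, the fibrillin that forms the microfibril scaffold of elastic fibres, was at 10.94, 11.58 and 11.43. Its dimmer probe set gave log2 ratios of 0.07 for the non-operated and -0.17 for the operated lung, so its small ratio depends on the probe set. FBLN1, a fibulin that binds elastic fibres and fibronectin, was lower, at 9.99 in sham, 9.33 in the non-operated and 8.79 in the operated lung. It was 1.59-fold lower in the non-operated and 2.30-fold lower in the operated lung, where a floor at the 75th percentile left a log2 ratio of -0.77. LOXL4 was below the floor on all arrays.

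The small leucine-rich proteoglycans regulate how collagen fibrils grow in width. LUM, which encodes lumican, was at 12.57 in sham, 11.82 in the non-operated and 11.33 in the operated lung. It was 1.69-fold lower in the non-operated and 2.36-fold lower in the operated lung, and the operated value remained between -1.25 and -1.20 on the log2 scale under each of 8 alternatives. DCN, which encodes decorin and is the direct neighbour of LUM in the RefSeq gene order, was at 12.27, 12.58 and 12.12, within 0.5 on the log2 scale across all arrays. BGN, which encodes biglycan, was at 8.37, 9.0 and 9.08, higher in both lungs by less than 2-fold. The 3 proteoglycan genes therefore did not share a direction.

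Of the adhesive and matricellular genes, 7 of 8 were counted, with median log2 ratios of 0.71 in the operated and 0.41 in the non-operated lung. SPARCL1 encodes hevin, a matricellular protein of vessel walls. It stood at 11.50 in sham, 12.92 in the non-operated and 12.68 in the operated lung, 2.66-fold and 2.27-fold higher. Its relative SPARC, a collagen-binding protein of remodelling tissue, lay between 13.97 and 14.15 on all arrays. TNC encodes tenascin C, which appears in injured and developing lung. It was at 7.48 in sham, near the floor, 7.88 in the non-operated and 8.51 in the operated lung, so that the operated lung was 2.05-fold above sham and the non-operated lung 1.32-fold. With the pseudocount the operated ratio was 0.74, below 2-fold. POSTN, which encodes periostin of activated fibroblasts, was at 10.96, 11.55 and 11.72, under 2-fold in both. THBS2 was at 9.43, 9.32 and 8.89, on the lower side, and THBS3 was below the floor.

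THBS1 encodes thrombospondin 1, a matricellular protein released by platelets and stromal cells that can activate latent TGF-beta. Its 3 probe sets above the floor were on the same side but differed in size. The brightest, which represents the gene, was at 12.39 in sham, 13.09 in the non-operated and 13.09 in the operated lung. It gives log2 ratios of 0.70 and 0.71, below 2-fold. A middle probe set was at 9.01, 10.28 and 10.24, with ratios of 1.27 and 1.23. The dimmest was at 7.43, 10.17 and 10.32, with ratios of 2.74 and 2.88 and with sham just above the floor. THBS1 was thus higher than sham on each of these probe sets, while whether it counts as past 2-fold depends on which is read. FN1, the fibronectin gene, also had probe sets that differed. Its bright probe set was at 12.85, 13.15 and 13.15, and a dimmer one at 8.49, 8.14 and 8.30, so its small ratios have opposite signs.

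**Figure D2:**
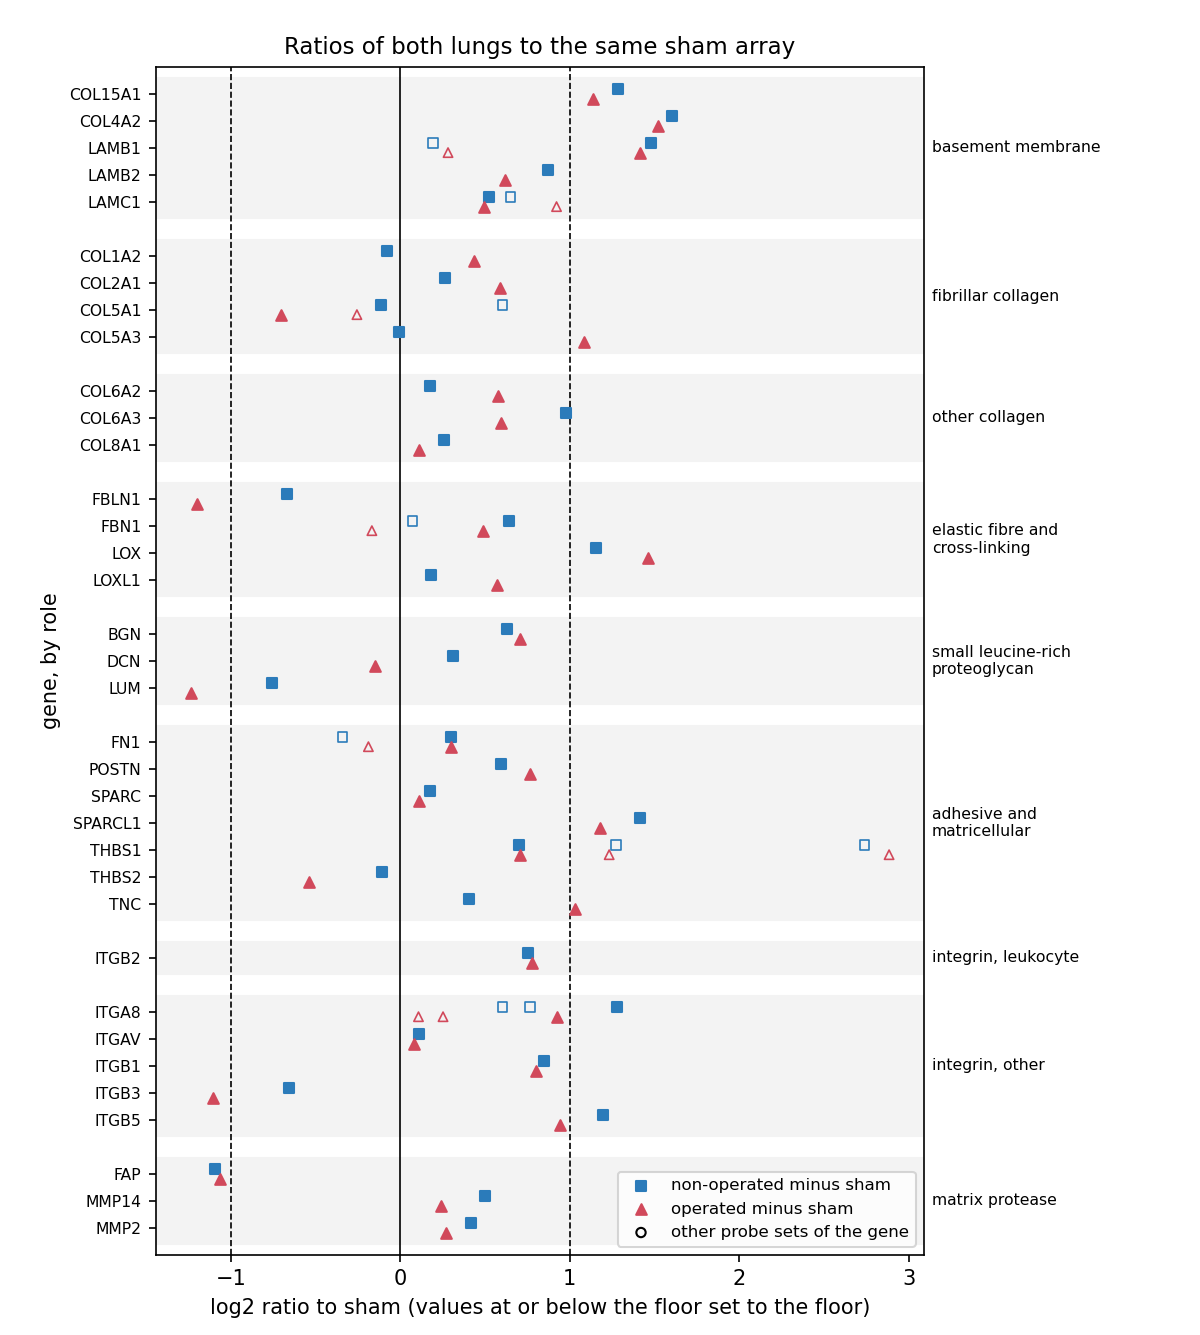
Log2 ratio of the non-operated (square) and operated (triangle) lung to the same sham array for the 35 counted genes, with dashed lines at 2-fold. Hollow symbols are further probe sets of the same gene above the floor on at least 1 array. The THBS1 probe sets spread from 0.70 to 2.88, and the basement membrane points lie to the right of 0 in both lungs.

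Of 12 integrin chains 6 were counted. Their median log2 ratio was 0.79 in the operated and 0.80 in the non-operated lung, and 5 of the 6 were above 0 in each. ITGB1 encodes the beta chain shared by the receptors for collagen, laminin and fibronectin. It was at 12.59 in sham, 13.44 in the non-operated and 13.39 in the operated lung, log2 ratios of 0.85 and 0.80. ITGA8 pairs with it in smooth muscle cells and lung fibroblasts. Its main probe set was at 8.36, 9.63 and 9.28, 2.43-fold higher in the non-operated and 1.90-fold higher in the operated lung. The other two probe sets gave smaller ratios, 0.60 and 0.76 for the non-operated and 0.25 and 0.11 for the operated lung, and the mean of all 3 brought the non-operated ratio to 0.88. ITGB5, a beta chain of vitronectin receptors, was at 8.23, 9.42 and 9.17, 2.29-fold and 1.92-fold higher, and its non-operated ratio was 0.98 with the pseudocount. Its partner chain ITGAV lay between 10.63 and 10.74 on all arrays.

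ITGB3 was the integrin chain on the lower side. It pairs with ITGAV in endothelial and other cells and with ITGA2B on platelets. Its signal was 8.41 in sham, 7.76 in the non-operated lung and 6.66, below the floor, in the operated lung. The non-operated lung was thus 1.58-fold, and the operated lung no less than 2.15-fold, below sham. ITGA2B was below the floor on all arrays, as was the platelet marker GP9. The platelet chemokine gene PPBP was the 1 platelet marker counted. It was at least 16.9-fold above sham in the non-operated and at least 14.5-fold above sham in the operated lung. ITGB2, the beta chain of the leukocyte integrins, was at 10.21, 10.96 and 10.99, under 2-fold in both lungs. Its partner ITGAM, and ITGB7 of gut-homing lymphocytes, were below the floor on all arrays, as were ITGA2, ITGA5 and ITGA6.

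The matrix proteases gave few measurable members, with 3 of 9 counted. FAP encodes fibroblast activation protein, a cell-surface protease of activated fibroblasts. It was at 9.39 in sham, 8.30 in the non-operated and 8.33 in the operated lung, 2.14-fold and 2.09-fold lower. Both values sit close to the threshold, and with the pseudocount they were -0.90 and -0.87 on the log2 scale. MMP2, the gelatinase made by stromal cells, was at 8.56, 8.98 and 8.83. MMP14, the membrane protease that activates it, was at 8.12, 8.62 and 8.36. Both were under 2-fold in either lung. MMP9, the gelatinase stored by neutrophils, was below the floor on all arrays at 4.30, 5.91 and 5.61. The collagenases and stromelysin MMP1, MMP3 and MMP13, together with MMP7 and MMP20, lie near each other in the RefSeq gene order, and each of the 5 was below the floor on all arrays.

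The operated and non-operated lungs were close for these genes. The median log2 ratio of operated to non-operated was -0.07 over the 35 members, and 1 of them, COL5A3, was past 2-fold, beside 0.248% of all genes, 0.062% on the higher and 0.186% on the lower side. The 5 basement membrane genes lay between -0.26 and -0.03. At this floor, on the probe sets that represent each gene, the largest other differences on the higher side were 0.63 for TNC and, as a bound, 0.51 for COL1A2. On the lower side they were -0.59 for COL5A1, -0.53 for FBLN1, -0.48 for LUM and -0.46 for DCN. Dimmer probe sets gave -0.86 for COL5A1 and -0.66 for ITGA8. For 5 of the 35 members (LUM, FBLN1, ITGB3, COL5A1 and THBS2) the non-operated lung lay between a higher sham and a lower operated lung. The reverse order held for 9 of the 35, among them LOX, LOXL1 and TNC. THBS1, ITGB2, BGN and POSTN are also among the 9, but their lungs differed by only 0.01 to 0.18. That is less than the probe set SD of 0.23 between the lungs. These orders were not counted over all genes, so whether they are more common among the members is not known. On its dimmer probe set COL5A1 was highest in the non-operated lung, at 9.10 against 8.50 in sham and 8.24 in the operated lung. ITGB3 was below the floor in the operated lung, so its ratio of -0.45 is a bound, and with a floor at the 25th percentile or with no floor it was -1.10, past 2-fold. Among the values measured above the floor on both arrays, COL5A3 alone was past 2-fold, and its ratio was 0.79 with the pseudocount.

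Genes that work with the matrix were followed in lists of their own. Of 9 counted genes for collagen synthesis and processing, 0 were past 2-fold against sham in either lung. Of all counted genes 17.8% were so in the operated and 17.9% in the non-operated lung. All 9 were lower in the operated than in the non-operated lung, with log2 ratios from -1.13 to -0.11. Below 0 in that comparison were 2518 of all 4841 genes and 23 of the 35 members. FKBP10, an endoplasmic reticulum prolyl isomerase needed for collagen folding and cross-linking, was at 8.22 in sham, 8.44 in the non-operated lung and 7.28, below the floor, in the operated lung. It was at least 2.19-fold lower in the operated than in the non-operated lung. Of 7 integrin adaptors, VCL, which encodes vinculin of focal adhesions, was at 11.95, 13.24 and 13.25, higher by 1.29 and 1.30 on the log2 scale. FLNA, an actin cross-linker that binds integrin tails, had log2 ratios to sham of 1.19 in the non-operated and 0.76 in the operated lung. PARVA, an adaptor of the same complexes, had log2 ratios to sham of 0.92 in the non-operated and 1.06 in the operated lung. LIMS1, which encodes the adaptor PINCH, was at 7.62 in sham, 8.56 in the non-operated and 7.43 in the operated lung. The operated value was just above the floor of 7.31, and it was 2.19-fold below the non-operated value.

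Among 6 counted protease inhibitors, TIMP1, an inhibitor of most metalloproteinases, was at 10.17 in sham, 10.36 in the non-operated and 9.02 in the operated lung, so that it was 2.54-fold lower in the operated than in the non-operated lung. TIMP3, the inhibitor bound to the matrix, was at 7.55, 10.17 and 9.98, 6.14-fold and 5.35-fold above sham. Its sham value was just above the floor of 7.33. TIMP2 had log2 ratios to sham of 1.08 in the non-operated and 0.91 in the operated lung. SLPI, an elastase inhibitor of airway secretions, had log2 ratios to sham of 2.86 in the non-operated and 2.73 in the operated lung. Of 9 further elastic fibre and proteoglycan genes, MFAP5 had a log2 ratio to sham of 1.61, PRELP of 1.25 and EMILIN2 of 1.03 in the non-operated lung. In the operated lung the ratios were 0.78 for MFAP5, 0.88 for PRELP and 1.07 for EMILIN2. In each lung 0 of the 9 were lower by 2-fold or more. Of all counted genes 8.76% were so in the operated and 8.53% in the non-operated lung. Ratios below 0 were found for 3 of the 9 in each lung, beside 2756 and 2713 of the 4841 genes. Of 7 genes of the TGF-beta pathway, TGFB2, a ligand that induces matrix genes, was below the floor in sham and at 8.23 in the non-operated and 9.02 in the operated lung, which makes it at least 1.86-fold and at least 3.23-fold higher. TGFB1 was at 9.22, 8.73 and 8.61, on the lower side. Of the 12 genes that differed by at least 2-fold between the lungs, 1 was a member, COL5A3, and 8 were neither members nor listed partners. The other 3 were FKBP10, TIMP1 and LIMS1, from lists with 9, 6 and 7 genes counted, beside 0.248% of all genes. These lists were chosen with earlier results of these data known. FKBP10, TIMP1 and LIMS1 each rest on 1 probe set, and the pseudocount and the other floors were not tried on single partner genes.

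**Figure D3:**
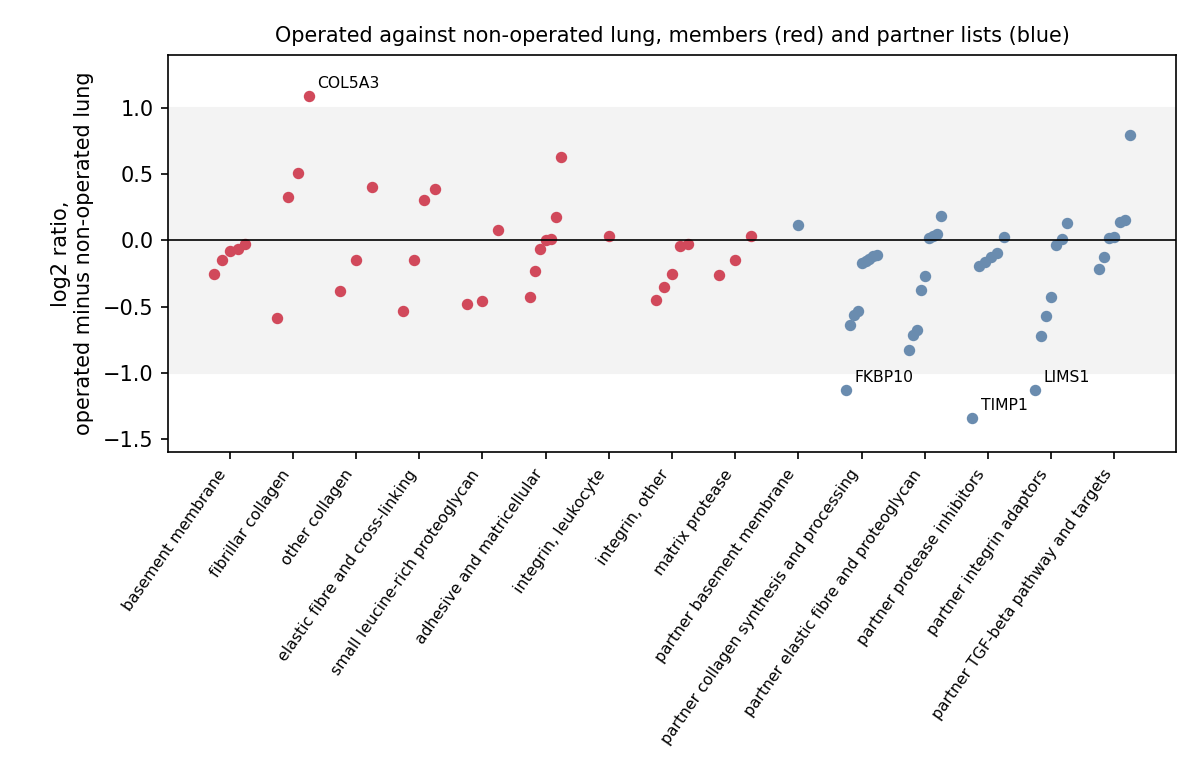
Log2 ratio of the operated to the non-operated lung for the counted members (red) and the partner lists (blue), with the band of less than 2-fold shaded. COL5A3 lies above the band and FKBP10, TIMP1 and LIMS1 below it, and the 9 genes for collagen synthesis and processing lie below 0, as do 2518 of all 4841 genes.

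Markers of the cells that make or hold matrix differed between sham and both lungs. In a bulk sample, fewer cells of a type and less RNA per cell cannot be told apart. Of 10 counted endothelial markers, 9 were at least 2-fold higher in the operated and 8 in the non-operated lung. Of all counted genes 9.05% and 9.4% were so. The endothelial medians were 1.49 and 1.52, beside 1.14 and 1.29 for the basement membrane genes. The summed linear signal of the endothelial markers, which the brightest probe sets dominate, was 8643 in sham, 25799 in the non-operated and 24883 in the operated lung. Of 5 smooth muscle markers 4 were at least 2-fold higher in each lung, and the medians were 1.67 and 1.71. The other, ACTA2, had log2 ratios of 0.64 and 0.93. The ratios of CNN1 and DES are lower bounds, as sham was below the floor. Of 5 alveolar type 1 markers, 4 were at least 2-fold higher in the operated and 5 in the non-operated lung. The 5 were AQP5, HOPX, PDPN, CAV1 and CAV2, with medians of 1.23 and 1.37. AGER was not counted and gave lower bounds of 0.81 and 0.94 on the log2 scale. Fibroblast and mesothelial markers had medians of 0.20 and 0.28, and 1 of 5, S100A4, was past 2-fold in each lung. PDGFRB had log2 ratios to sham of 0.37 and 0.28, and THY1 of -0.16 and 0.10, in the operated and non-operated lung. Of the leukocyte markers, the 3 counted for macrophages (CD163, MRC1 and VSIG4) had medians of 2.53 and 2.38. The 3 counted from the neutrophil list were S100A8, S100A9 and S100A12, with medians of 1.72 and 2.21. The log2 ratios of ITGB2 were 0.78 and 0.75. ELANE and LTF of the neutrophil list and CD14 of the macrophage list were below the floor on all arrays, and MARCO was not counted. The 5 alveolar type 2 markers had medians of 0.67 and 0.12. B cell, T cell and cell division markers were lower, with medians of -2.82, -1.36 and -3.06 in the operated lung. The part of any of these cell types in the matrix and integrin ratios was not tested.

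**Figure D4:**
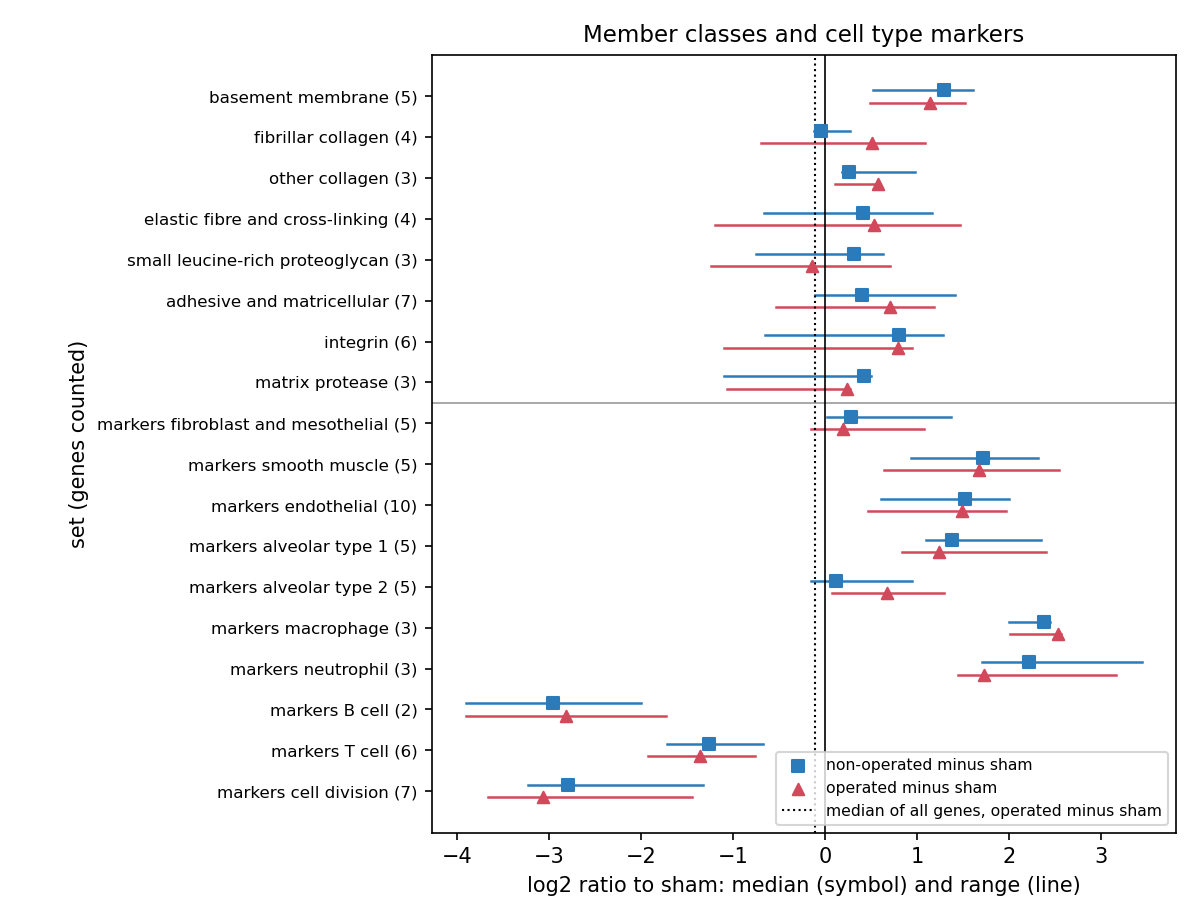
Median (symbol) and range (line) of log2 ratios to sham in the non-operated (square) and operated (triangle) lung, for member classes above the grey line and cell type markers below it, with the number of genes counted in brackets and the median of all genes dotted. In that order the basement membrane medians were 1.29 and 1.14. Marker medians were 1.37 and 1.23 for alveolar type 1, 1.52 and 1.49 for endothelial, and 1.71 and 1.67 for smooth muscle cells. They were 2.21 and 1.72 for the neutrophil list, counted on S100A8, S100A9 and S100A12, and 2.38 and 2.53 for macrophages. Alveolar type 2 cells had 0.12 and 0.67, and fibroblasts 0.28 and 0.20. B cell, T cell and cell division medians lay below 0.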

How the data were processed

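Gene expression was read on 3 arrays, 1 each for sham, non-operated and operated lung. Per the submitters' processing notes the signals come from MAS5. The deposited values are on the log2 scale, judged from their range and their equal linear trimmed means. For MAS5, its version, scaling target and detection calls were not given in the sources used here. No further scaling was applied to the main values. Of 23999 probe sets, 64 controls were left out, and 10069 carried 1 gene symbol in the platform annotation. All 103 member probe sets matched RefSeq gene identifiers of Sscrofa11.1, and 0 symbols differed. A further 2 probe sets whose several symbols include a matching one were not used.

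Ratios are differences of log2 values after the floor, computed with Python 3.11.15 and pandas 2.3.3, and a ratio is a bound where 1 of the arrays is at the floor. The procedure was tested on simulated data in which genes well above the floor were shifted by more than 2-fold. That test does not cover ratios close to 2-fold or signals near the floor. The alternatives were 2 scalings, floors at the 25th and 75th percentile, no floor, another filter, a pseudocount of 100, the mean of all probe sets and every probe set on its own. Members at least 2-fold different in any comparison are named, as are members whose probe sets disagree, and the largest ratios of each partner list. The other counted members are described too. The members and lists were chosen with earlier results of these data known.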

Additional observations from a re-analysis of the deposited data

How the results depend on the processing

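Of 159 alternative values for the counts and medians, 138 kept close to the main value, within 1.5 times for counts and within the probe set SD for medians. Both other scalings and the filter on either array changed none of them beyond that. With the floor at the 75th percentile, 18 members remained, with 3 higher and 1 lower in the operated lung, 3 and 0 in the non-operated lung and 0 higher between the lungs, and the fibrillar collagen medians were -0.31 against sham for the operated lung and -0.20 between the lungs, on 1 gene. With the floor at the 25th percentile the lower count in the non-operated lung was 2, the counts between the lungs were 2 higher and 3 lower, and the operated integrin median was 0.25. With no floor and no filter, which admits signals below the floor, 10 members were lower in the operated lung, 14 higher and 4 lower in the non-operated lung, and 3 higher and 8 lower between the lungs, with an operated integrin median of 0.25. With a pseudocount, 4 were higher in the operated lung, 0 lower in the non-operated lung and 0 higher between the lungs. With the mean of all probe sets 26 members were counted and 0 were higher between the lungs, as COL5A3 was no longer counted. No fibrillar collagen median could be given there. The cause of these shifts was not tested beyond the change in genes counted. COL4A2, LAMB1, LUM, SPARCL1 and ITGB3 stayed past 2-fold under each alternative that counted them wherever they were so in the main values. With 1 array per group no paired analysis and no omission of a replicate was possible.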
